A study of Mus musculus with 6 samples.

Results

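The genes described here are Akr1e1, Rab6b, Mrpl35, Vps16, Kdelr3, Polr1b, Rbbp9, Serpinf1, Tfpi and Gsta4, 10 of the 34740 genes on the array. They were picked because each was at least 2-fold lower in TIARP-deficient than in wild-type cells in all 3 conditions of the study, so their difference between genotypes is a description and not a finding. These names were carried by 15 of the 55680 probes. The study used C57BL/6 mice that were TIARP+/+ (wild type, WT) or TIARP-/- (knockout, KO). The gene for TIARP is Steap4, which codes for a membrane protein that reduces iron and copper. For each genotype, 1 array held peritoneal macrophages collected 3 days after thioglycollate, 1 held such macrophages given TNFα for 24 h, and 1 held neutrophils of the spleen, picked by magnetic beads for Ly6G. Each array is labelled with mice numbered 1 to 3, and the labels do not say whether their RNA was pooled. A duration of culture is given for the TNFα arrays only, and how the allele was made or how often it was crossed to C57BL/6 is not given.

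With 1 array for each of the 6 groups, no difference within a condition had a replicate check or a test. A genotype model over the 3 pairs of arrays was not fitted, because the genes were chosen on that contrast. A gene was called lower or higher by size alone, when its log2 difference was at least 1 and its probe was well above background on the brighter array. Intensities are given relative to the 75th percentile of the same array, which has the value 1. Before this scaling the 75th percentiles ran from 224 to 490 intensity units, and between 56.6% and 62.2% of probes were well above background. A fold whose lower reading was not well above background is a bound, written as "at least". It was taken against that reading or the weakest detected signal on its array, whichever was larger. A log2 difference of this kind is written as "at or below" its bound, or "at or above" it for increases. The Steap4 probe read 175 on the WT and 83.1 on the KO macrophage array, 49.2 and 12.8 with TNFα, and 48.8 and 36.0 in neutrophils, in intensity units. Its scaled log2 differences were -0.81 in macrophages, at or below -1.59 with TNFα, where the KO reading was not well above background, and -0.39 in neutrophils. The deleted stretch of Steap4 is not given, so this probe does not check the labels.

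The 10 genes belong to several unrelated processes. Vps16, Rab6b and Kdelr3 act in membrane traffic, which moves proteins between the endoplasmic reticulum, the Golgi and lysosomes. Akr1e1, Gsta4 and Rbbp9 are soluble enzymes, and aldo-keto reductases and glutathione S-transferases remove reactive carbonyl compounds. Polr1b and Mrpl35 serve the making of ribosomal RNA and of mitochondrial proteins. Serpinf1 and Tfpi are secreted, and are known products of fibroblasts, mesothelium or endothelium.

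By the choice of members all 10 were lower in KO in macrophages, where 1.55% of 24655 genes tested were lower and 4.08% higher. All 10 were also lower in macrophages with TNFα, against 2.67% of genes tested lower and 6.92% higher. In neutrophils all 10 were again lower, against 4.73% lower and 3.66% higher. The rule used these contrasts, so nothing is read from these counts. Over the array, 40 of 21818 genes tested in all 3 conditions were lower in each of them (0.183%), and 89 were higher in each (0.408%). The median difference of the members was -1.995 in macrophages, -2.45 with TNFα and -2.45 in neutrophils, as measured log2 values, beside 0.07, 0.05 and -0.01 over all genes tested. Among members, Serpinf1 lay just inside the threshold, at -1.03 in macrophages, and Kdelr3 at -1.08. Just outside lay Dkk3, at -0.996, -1.06 and -1.26 in the order of conditions above. Mxra8 missed in neutrophils alone, at -0.99, as did Psmb6, also at -0.99.

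**Figure D1:**
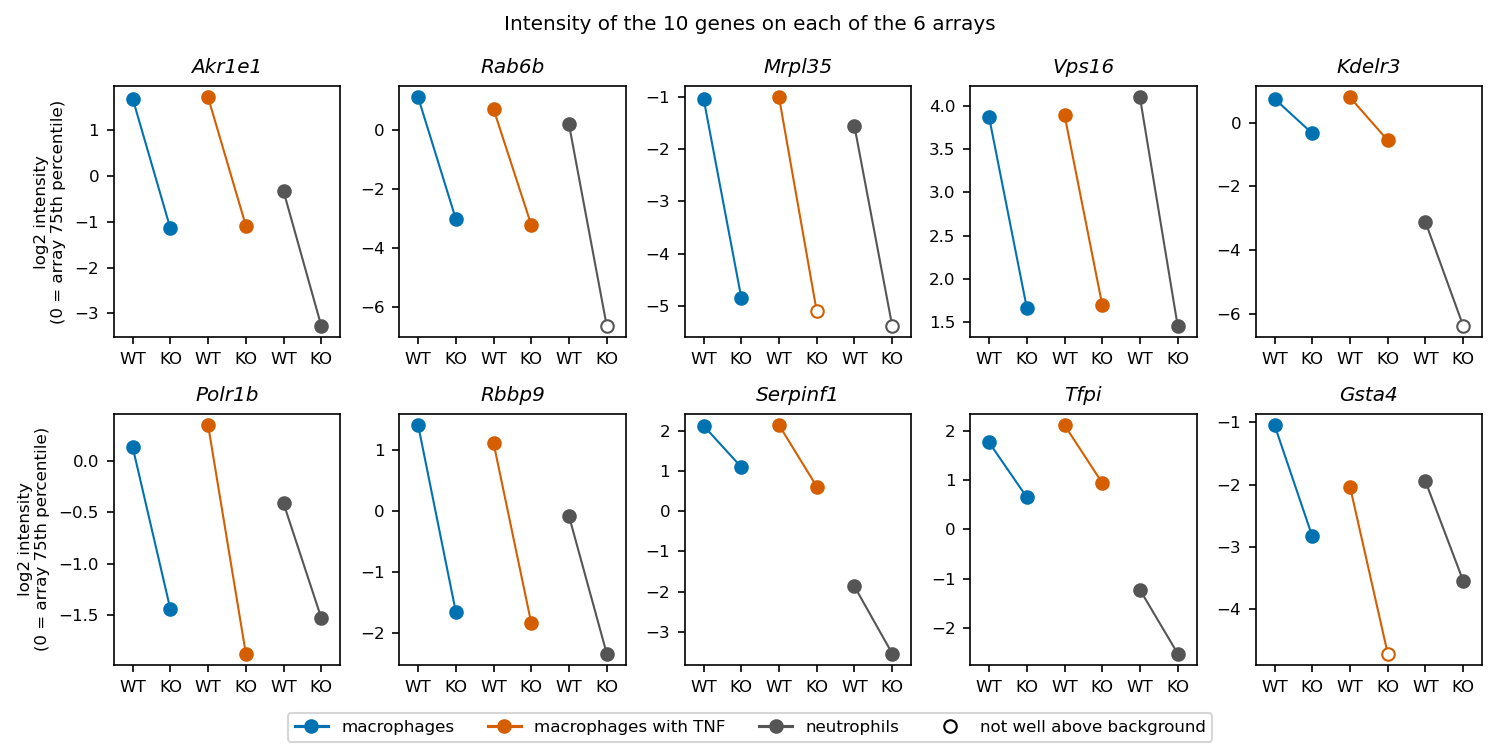
Scaled log2 intensity of each of the 10 genes (main probe) on the 6 arrays, with 0 at the array's 75th percentile. Lines join the WT and KO arrays of 1 condition, open points were not well above background, and each panel has its own vertical scale. KO lies below WT in all 30 pairs, which the choice of genes fixed, and Serpinf1, Tfpi and Kdelr3 lie lower on the neutrophil than on the macrophage arrays.

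Among the genes of membrane traffic, Vps16 codes for a core subunit of the HOPS and CORVET complexes, which tether endosomes and lysosomes before fusion. Its single probe lies at chr2:130269407-130269466 (mm9, plus strand). Its relative intensity was 14.6 on the WT and 3.18 on the KO macrophage array, 14.9 and 3.25 with TNFα, and 17.1 and 2.75 in neutrophils. The 3 WT arrays were close to each other and so were the 3 KO arrays, with KO 4.60-, 4.58- and 6.22-fold lower. All 6 readings were well above background.

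Rab6b codes for a small GTPase of the Golgi that is best known from neurons, and its single probe lies at chr9:103087539-103087598 (plus strand). Its relative intensity was 2.16 in WT and 0.124 in KO macrophages, 1.64 and 0.108 with TNFα, and 1.14 and 0.0101 in neutrophils. KO was 17.5- and 15.2-fold lower in macrophages without and with TNFα. The KO neutrophil reading was not well above background, so the difference there was at least 24.4-fold.

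Kdelr3 codes for a receptor that returns escaped chaperones to the endoplasmic reticulum, with a probe at chr15:79357588-79357647 (plus strand). Its relative intensity was 1.68 in WT and 0.792 in KO macrophages and 1.73 and 0.682 with TNFα, which made KO 2.12- and 2.54-fold lower. In neutrophils it was 0.116 in WT and 0.0121 in KO, the latter not well above background, for a difference of at least 2.46-fold. Kdelr3 was thus dim on both neutrophil arrays.

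Of the enzymes, Akr1e1 codes for an aldo-keto reductase that reduces 1,5-anhydrofructose, with a probe at chr13:4592152-4592211 (minus strand). Its relative intensity was 3.21 in WT and 0.452 in KO macrophages, 3.27 and 0.472 with TNFα, and 0.794 and 0.104 in neutrophils. KO was 7.12-, 6.93- and 7.65-fold lower. The 3 log2 differences lay within 0.14 of each other, although both neutrophil arrays read lower than the macrophage arrays.

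Gsta4 codes for the alpha class glutathione S-transferase that conjugates 4-hydroxynonenal, a product of lipid peroxidation. Its probe was placed by the files at chr9:78046172-78047344 (plus strand), a span of 1173 bases. It was printed in 10 spots on each array, so its technical scatter can be shown. In intensity units the spots averaged 238 ± 10.2 (SD, n = 9 spots) on the WT and 57.4 ± 3.26 (n = 10) on the KO macrophage array. With TNFα they averaged 106 ± 11.2 (n = 10) and 13.0 ± 2.31 (n = 9), where 3 of the 9 KO spots were well above background. In neutrophils they averaged 60.3 ± 6.51 (n = 10) in WT and 19.5 ± 4.61 (n = 10) in KO. In each pair the lowest WT spot read above the highest KO spot. After scaling, KO was 3.46-fold lower in macrophages, at least 6.43-fold lower with TNFα and 3.03-fold lower in neutrophils. Spots of 1 array share 1 RNA sample, so this spread says nothing of that between mice.

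Rbbp9 codes for a serine hydrolase named for its binding to the retinoblastoma protein, and 2 probes carried its name under the same transcript accession. Polr1b, the second largest subunit of RNA polymerase I, also had 2 probes, Serpinf1 had 2 and Tfpi had 3. These 4 genes are those in which readings of 1 gene can be set beside each other. The central 30 of each probe's 60 bases (bases 16 to 45, 5′ to 3′, in lower case throughout) are shown because probes of 1 gene gave different results.
Rbbp9 main probe, chr2:144368183-144368242: aactatgccaggttaattctatagagttca
Rbbp9 further probe, chr2:144369557-144369616: tcactgaccgtggtcactttcagaacacag
Polr1b main probe, chr2:128951870-128951929: acacaagtgagggtattatgggctcactct
Polr1b further probe, chr2:128946001-128946060: tatagtgctgagtggacatattcttttatt
Serpinf1 main probe, chr11:75223582-75223641: gctctacagaacccccagagggaagctgat
Serpinf1 further probe, chr11:75229163-75229222: cattcaccgggctctctactacgacctgat
Tfpi main probe, chr2:84273059-84273118: tcacaaacattacatacccttgacagtcta
Tfpi further probe, same transcript, chr2:84284179-84284238: gcagtactgtaaataacatcgtggttcccc
Tfpi further probe, other transcript, chr2:84281022-84281081: actttaggtttataggcataaaagctattg
Both Polr1b probes lie on the plus strand and the others on the minus strand. The main probe of a gene is the one with the highest mean over the 6 arrays, and the further probes lie between 1.37 and 11.1 kb from it. No other probe on the array shared a run of 20 or more bases with any probe of the 10 genes. Which exon or untranslated region each probe falls in was not analysed here, for want of gene models on mm9.

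On its main probe Rbbp9 had a relative intensity of 2.67 in WT and 0.316 in KO macrophages, 2.17 and 0.278 with TNFα, and 0.944 and 0.197 in neutrophils. KO was 8.44-, 7.81- and 4.80-fold lower. The further probe, 1.37 kb away, read 0.133 in WT and 0.141 in KO macrophages, 0.109 and 0.126 with TNFα, and 0.0442 and 0.0561 in neutrophils. Its log2 differences were 0.08, 0.20 and 0.34, none past 2-fold, and its WT neutrophil reading was not well above background. The 2 probes of Rbbp9 thus gave different results on the same 6 arrays.

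For Polr1b the main probe read 1.10 in WT and 0.367 in KO macrophages, 1.27 and 0.272 with TNFα, and 0.752 and 0.347 in neutrophils, in relative intensity. KO was 2.99-, 4.67- and 2.17-fold lower. The further probe was well above background on the KO neutrophil array only, where it read 0.0690 against 0.0189 in WT, and was not called there. It therefore gives little on the gene.

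Serpinf1 codes for pigment epithelium-derived factor, a secreted serpin without protease inhibition that restrains the growth of blood vessels. Its main probe read 4.39 in WT and 2.15 in KO macrophages, 4.43 and 1.53 with TNFα, and 0.273 and 0.0856 in neutrophils, with KO 2.04-, 2.89- and 3.19-fold lower. The further probe, 5.58 kb away, read 0.704 and 0.441 in WT and KO macrophages, 0.702 and 0.288 with TNFα, and 0.0619 and 0.439 in neutrophils. Its log2 differences were -0.68, -1.29 and 2.83. The probes went the same way in macrophages and opposite ways in neutrophils, where the further probe was 7.10-fold higher in KO. All 12 readings were well above background. The WT neutrophil reading of the further probe was 14.3 intensity units, close to 11.1, the weakest detected signal on that array. With an alternative background correction (normexp) its neutrophil difference was 0.98, short of 2-fold. That correction adds an offset of 50 intensity units, which draws differences between dim readings toward 0.

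Tfpi codes for tissue factor pathway inhibitor, which blocks factor Xa and the complex of tissue factor with factor VIIa. Its main probe read 3.39 in WT and 1.57 in KO macrophages, 4.32 and 1.92 with TNFα, and 0.427 and 0.175 in neutrophils, with KO 2.16-, 2.25- and 2.45-fold lower. The further probe annotated to the same transcript, 11.1 kb away, read 1.04 and 0.529, 1.43 and 0.647, and 0.143 and 0.132, with log2 differences of -0.97, -1.15 and -0.11. The probe annotated to another Tfpi transcript read 0.644 and 0.661, 0.910 and 0.974, and 1.43 and 1.23. It differed by 0.04, 0.10 and -0.22 on the log2 scale, and was brightest in neutrophils, where the other Tfpi probes were dimmest.

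**Figure D2:**
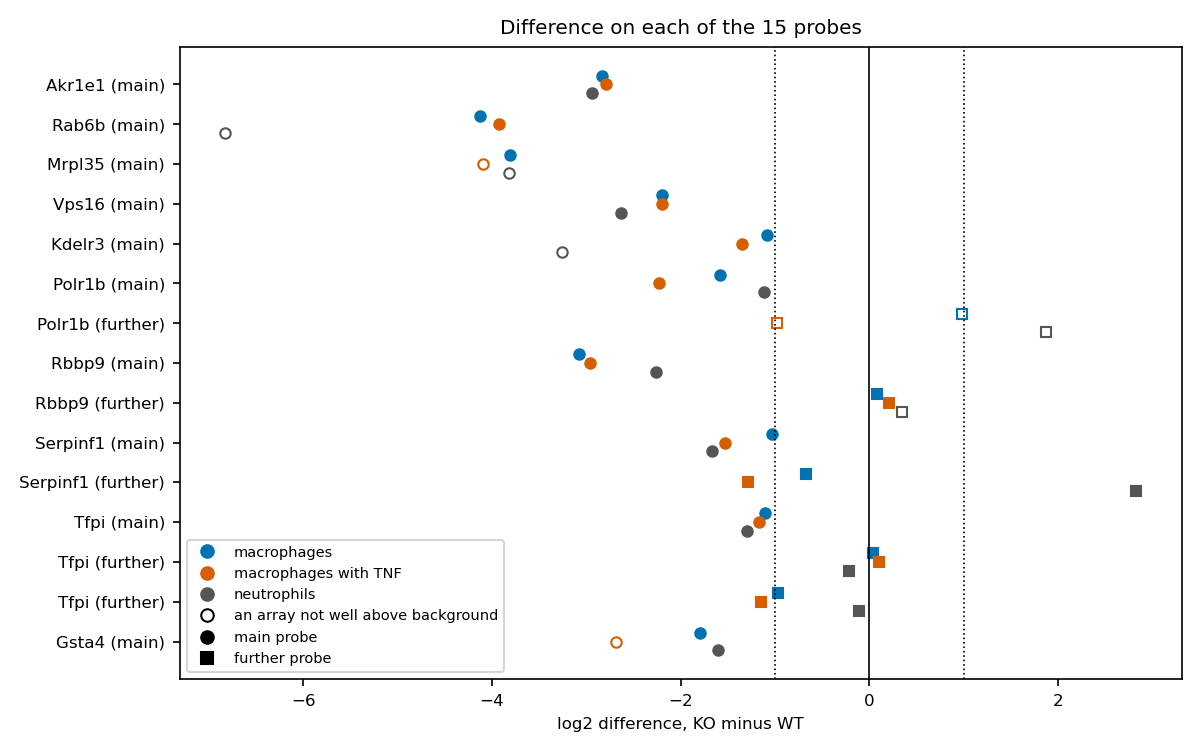
Scaled log2 difference, KO minus WT, for all 15 probes of the 10 genes in the 3 conditions. Circles are main probes, squares are further probes, open symbols mark a pair with an array not well above background, shown at its measured value, and dotted lines mark 2-fold. Main probes lie left of -1 by the choice of genes, while the further probes of Rbbp9 lie near 0 and that of Serpinf1 lies at 2.83 in neutrophils.

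Mrpl35 codes for a protein of the large subunit of the mitochondrial ribosome. Its single probe lies at chr6:71765277-71765336 (minus strand) and read 0.487 in WT and 0.0347 in KO macrophages, 0.496 and 0.0290 with TNFα, and 0.338 and 0.0240 in neutrophils. The last KO readings, with TNFα and in neutrophils, were not well above background. KO was 14.0-fold lower in macrophages, at least 14.2-fold lower with TNFα and at least 7.21-fold lower in neutrophils.

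Further probes are independent of the probe that chose the gene, though they share its arrays. Of 15 such readings on 5 probes, 13 could be judged, 2 were at least 2-fold lower in KO and 1 was higher. The lower ones were Serpinf1 and Tfpi (same transcript) in macrophages with TNFα, and the higher one was Serpinf1 in neutrophils. In macrophages 2 of 4 were below 0, with TNFα 2 of 4, and in neutrophils 2 of 5. For all genes that were lower in KO by their main probe, further probes were below 0 in 60 of 70 cases (85.7%) in macrophages, 120 of 132 (90.9%) with TNFα and 112 of 137 (81.8%) in neutrophils. They were also at least 2-fold lower in 41.4%, 46.2% and 35.8%. The member probes are few and 3 of the 5 belong to Serpinf1 and Tfpi, so no difference from these shares was tested. For 6 of the 10 genes the array holds 1 probe only.

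How far the KO difference varied over conditions is a description, since the rule used these values. Of the 6 members well above background on all arrays, the 3 log2 differences spanned 0.14 in Akr1e1, 0.18 in Tfpi, 0.44 in Vps16, 0.64 in Serpinf1, 0.81 in Rbbp9 and 1.11 in Polr1b. Over 20151 genes measured on all arrays the median span was 0.40, and 61.7% spanned 0.5 or less, as did 3 of these 6.

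The response to TNFα was not used to choose the genes, although it was measured on the same macrophage arrays. In WT macrophages TNFα left all 10 members within 2-fold, where 8.99% of 24628 genes were past it in either direction, 4.59% lower and 4.40% higher. The median of the members was 0.03, beside 0.02 for all genes. The lowest was Gsta4, at -0.99, and the highest was Tfpi, at 0.35. In KO macrophages 1 of 10 was past 2-fold, against 8.13% of genes (3.71% lower, 4.42% higher), and that was Gsta4, at least 3.69-fold lower with TNFα. Akr1e1 and Vps16 moved by no more than 0.06 in either genotype. With 10 genes, these counts lie near the shares of the array.

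In WT, 5 of 10 members were at least 2-fold lower in neutrophils than in macrophages and none higher, where 43.5% of 25569 genes were past 2-fold, 17.5% lower and 25.9% higher. Serpinf1 was 16.1-fold lower, Kdelr3 14.5-fold, Tfpi 7.93-fold, Akr1e1 4.05-fold and Rbbp9 2.82-fold. Vps16 stood at 0.23 on the log2 scale, Mrpl35 at -0.53, Polr1b at -0.55, Gsta4 at -0.90 and Rab6b at -0.92, the last of these close to the 2-fold limit. With spike-in scaling all 10 were past it. Between the KO arrays the 5 lower genes were Serpinf1, Kdelr3, Tfpi, Akr1e1 and Rab6b, out of 10, where 44.5% of genes were past 2-fold, 19.4% lower and 25.0% higher. These arrays are also those of the genotype contrast, and the cells came from different tissues.

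The labelled cell types carried their own markers. Those of mature neutrophils summed to 2228 and 2745 in relative intensity on the WT and KO neutrophil arrays and to between 176 and 504 on the macrophage arrays. Those of macrophages summed to between 1199 and 1703 on the macrophage arrays. B cell markers also summed to 627 and 635 on the neutrophil arrays. Markers of other cells moved with the genotype as well. In bulk RNA, fewer cells of a type and less RNA per cell cannot be told apart. Of 10 marker genes of mesothelial cells and fibroblasts, 6 were lower in KO macrophages (median -1.05, 8 of 10 below 0) and 5 with TNFα (median -1.38, 10 of 10 below 0), or 3 and 3 with normexp background correction. Their summed relative intensity was 263 in WT and 146 in KO macrophages, 249 and 118 with TNFα, and 1.11 and 1.41 in neutrophils. In the same comparisons Serpinf1 stood at -1.03 and -1.53, Tfpi at -1.11 and -1.17, and Kdelr3 at -1.08 and -1.35. The part of these cells in the members' differences was not tested. In neutrophils, Upk3b, Msln, Krt19, Lrrn4, Lum and Pdgfra of that list were not well above background on either array. None of its 4 genes tested there was lower. Serpinf1, Tfpi and Kdelr3 stood at -1.67, -1.29 and at or below -1.30 on those arrays.

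In neutrophils, markers of macrophages moved. Of 12 such markers 6 were lower in KO (median -0.97), with a summed relative intensity of 531 in WT and 378 in KO, whereas 0 of 12 were lower in KO macrophages without or with TNFα. A separate list of resident peritoneal macrophages had 2 of 7 markers higher in KO macrophages and 2 of 7 lower with TNFα (median -0.88). In neutrophils 2 of its 5 markers tested were lower and 1 was higher. Marker lists of plasma cells (4 of 5) and eosinophils (3 of 4, with 1 higher) were also mostly lower in KO neutrophils. Of 6 erythroid markers 5 were higher and 1 was lower. Markers of mature neutrophils were higher in KO in 4 of 10 on the neutrophil arrays (median 0.95, 0 of 10 below 0). On the KO macrophage arrays 5 of 10 of them were higher without and 4 of 10 with TNFα. B cell markers were higher on those macrophage arrays in 4 of 8 and 6 of 8. The part of these cells in the members' differences was not tested.

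Genes that work with the members mostly did not pass the size rule. Of 47 other proteins of the mitochondrial large ribosomal subunit, 0 were lower or higher in KO in any of the 3 conditions, beside Mrpl35, with medians of 0.06, -0.06 and -0.26. The same count of 0 held for 9 other genes listed with HOPS and CORVET beside Vps16, not all of them subunits of these complexes. It also held for 13 of RNA polymerase I and its factors beside Polr1b, and 8 of retinoblastoma and its binding proteins beside Rbbp9. With spike-in scaling, which lowers all KO values, 5 of the mitochondrial, 1 of the HOPS and CORVET, 4 of the polymerase I and 1 of the retinoblastoma genes were lower with TNFα, and 1 mitochondrial gene in neutrophils. In the scaling used here the medians of these lists lay between -0.26 and 0.06.

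Around Kdelr3, 13 KDEL receptors and chaperones of the endoplasmic reticulum held Pdia4, a disulfide isomerase, lower in neutrophils at -1.04, and P4hb, another, higher with TNFα at 1.09. Around Rab6b, Kif20a, a kinesin that binds Rab6, was lower with TNFα at -1.11 and Rabgap1 was higher at 1.16, and none of the list passed in the other conditions. Each of these 4 genes passed in 1 of 3 conditions. Spike-in scaling gave 0, 9 and 6 lower and 0 higher among the 13 genes around Kdelr3 in macrophages, with TNFα and in neutrophils, and 3, 3 and 0 lower and 0 higher among those around Rab6b.

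Members of the enzyme families passed the rule in both directions in macrophages and downwards in neutrophils. Of the other aldo-keto reductases 0 of 10, 1 of 10 and 5 of 11 were lower in KO, in macrophages, with TNFα and in neutrophils, and 1, 1 and 0 were higher, while spike-in scaling gave 1, 6 and 7 lower and normexp background correction 0, 1 and 2. Akr1c20 was at 1.91 in macrophages, at or above 2.94 with TNFα and at or below -2.09 in neutrophils, on the log2 scale. Akr1b7 and Akr1c13 were lower in neutrophils, at -2.08 and -1.49. Of 21 other glutathione S-transferases 2, 3 and 2 were lower and 1, 2 and 0 higher, while spike-in scaling gave 4, 10 and 7 lower and normexp 1, 3 and 1. Gstm7 was higher by 2.21 and 2.55 in macrophages and lower at -1.25 in neutrophils, and Gstt1 was higher with TNFα at 1.74 and lower in neutrophils at -1.81. Gsta2, another alpha class enzyme, was at or below -1.01 in macrophages, at -1.94 with TNFα and at 0.16 in neutrophils, where the WT reading was not well above background.

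Of 10 other secreted serpins 1, 1 and 2 were lower and 2, 2 and 2 higher in KO, while spike-in scaling gave 1, 2 and 2 lower and 0, 0 and 1 higher. Serpine2, a thrombin inhibitor, was higher in neutrophils at 2.32, while Serpinc1, antithrombin, was higher in macrophages at 1.19. In neutrophils Serpinc1 was lower, at a measured -2.16 with the KO reading not well above background. Among genes of the tissue factor pathway, Procr, the protein C receptor, was lower with TNFα at -1.03. Partners of tissue factor other than Procr and Serpinc1 did not pass in any condition in this scaling, while spike-in scaling gave 1, 3 and 2 lower in the list.

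The 10 genes lay on 6 chromosomes, with 4 of them, Tfpi, Polr1b, Vps16 and Rbbp9, on chromosome 2. Rab6b and Gsta4 lay on chromosome 9, 25.0 Mb apart. Of all 40 genes lower in KO in the 3 conditions, 8 lay on chromosome 2 and 8 on chromosome 11, which hold 7.36% and 7.14% of the genes tested. None lay on chromosomes 1, 3, 5, 8, 10 or 18. Of genes higher in all 3, chromosome 2 held 9 and chromosome 11 held 7 of 89. The members were taken from these 40 genes, so their chromosomes are a description.

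**Figure D3:**
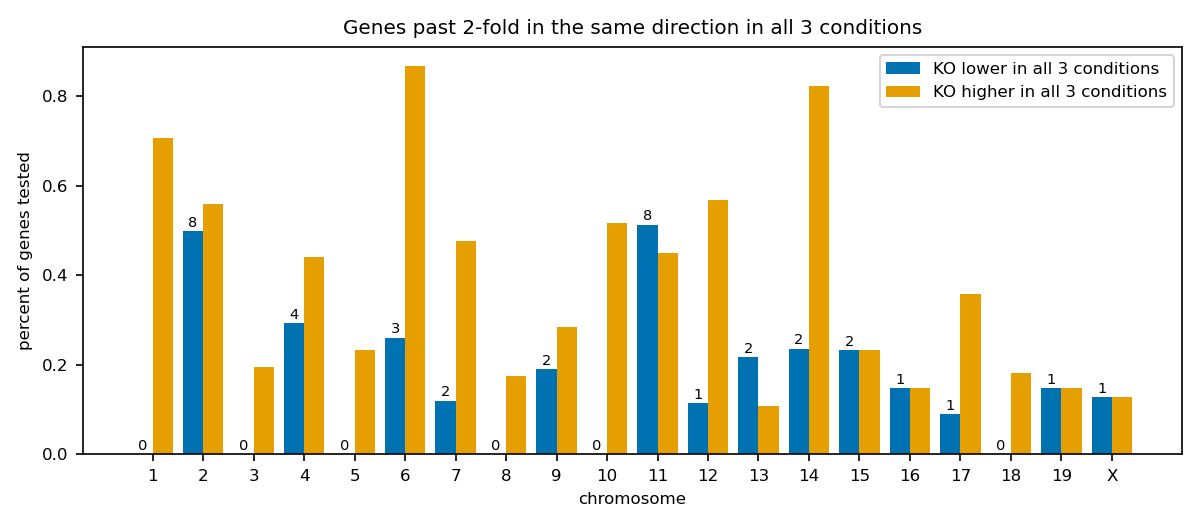
Percent of the genes tested in all 3 conditions on each chromosome that were at least 2-fold lower (blue) or higher (orange) in KO in all of them, with the number of lower genes above each blue bar. Chromosomes 2 and 11 hold 8 lower genes each, and 6 of the chromosomes drawn hold none.

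Of the 40 genes, 10 had another of the 40 within 1 Mb, 2 of them members, Vps16 and Mrpl35. The same count for other sets of genes is not given here, so nothing is read from it. On chromosome 2 the 4 members are spread over many megabases, and the nearest pair, Polr1b and Vps16, lay 1.32 Mb apart. Vps16 had 6330526H18Rik 0.43 Mb away, at or below -2.17, -1.42 and -1.23 in the 3 conditions. Mrpl35 had Thnsl2, a threonine synthase-like gene, 0.69 Mb away, at -1.21 and -1.22 in macrophages without and with TNFα and at or below -2.30 in neutrophils. On chromosome 11 the closest were Sat2, a spermidine acetyltransferase-like gene, with 2 unnamed transcripts, and 2610507I01Rik with H2bu2, a histone gene.

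Within 1 Mb of the members lay 426 other genes, of which 359 could be judged in at least 1 condition. In macrophages 16 of the 341 tested there (4.69%) were lower in KO, beside 1.55% of all genes. With TNFα it was 22 of 331 (6.65%) beside 2.67%, and in neutrophils 25 of 329 (7.60%) beside 4.73%. In the same order 12, 21 and 10 neighbours were higher in KO, beside 4.08%, 6.92% and 3.66% of all genes. Being lower in at least 2 conditions held for 13 neighbours, and being higher for 12. The share of all genes that did so is not given here, so nothing is read from these 2 counts. No test of the shares was made, since neighbouring genes are not independent. The median of the neighbours was 0.01, -0.04 and -0.10.

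The neighbours of Gsta4 and Vps16 made up 8 of the 13. Around Gsta4, 5 of 24 genes tested were lower in macrophages and 5 of 22 with TNFα, but 0 of 17 in neutrophils, where Gsta4 itself was 3.03-fold lower. They were Gm3776, Gm10639, Gsta2 and 2 long noncoding RNA probes, 70.6 to 133 kb away. Gm3776 was at -1.34 and -3.11 in macrophages without and with TNFα, and not well above background in neutrophils. Gm10639 was at -1.81 and -2.60, and at -0.09 in neutrophils. Glutathione S-transferase genes of this cluster are close copies, and whether their probes read the same RNA was not tested. Around Vps16 were Cpxm1, a carboxypeptidase-like protein 52.8 kb away, at -2.06, -2.32 and -0.11, Ap5s1, a subunit of the AP-5 adaptor, at -1.56, -1.19 and -0.93, and 6330526H18Rik.

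Of the rest, Tfpi had Slc43a1, an amino acid transporter, at -1.26 in macrophages and at or below -1.83 with TNFα, and Fam171b, at -1.58 and at or below -2.15. Near it too was Prg2, the eosinophil major basic protein, at or below -1.27 with TNFα and at -4.05 in neutrophils. Prg2 is itself one of the eosinophil markers, of which 3 of 4 tested were lower in KO neutrophils and 1 was higher. Polr1b had 1 noncoding RNA probe, at -1.52 and -1.31 in macrophages. Akr1e1 had no lower neighbour in macrophages, and 5 of 12 in neutrophils. These were Akr1c12, Akr1c13, Akr1c18, Akr1c20 and an unnamed transcript, picked out here after their values were seen. Rab6b, Kdelr3, Rbbp9 and Serpinf1 had none lower in 2 conditions.

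Genes whose probes lay within 20 kb of a member's probe mostly did not pass the size rule. Srprb beside Rab6b, Ddx17 beside Kdelr3, Chchd5 beside Polr1b, Polr3f beside Rbbp9 and Smyd4 beside Serpinf1 were chosen by distance after their values were seen. None of their probes was at least 2-fold lower in any condition. The Srprb probes were below 0 in each condition, at -0.23, -0.45 and -0.84 and at -0.19, -0.36 and -0.66. Those of Chchd5 ranged from -0.55 to 0.29. Polr3f lay 1.28 kb from the main probe of Rbbp9, on the other strand, and differed by 0.18, 0.08 and 0.31. Ddx17 lay 0.75 kb from that of Kdelr3, on the other strand, and differed by 0.01, -0.13 and 0.02. Reep1, 4.65 kb from Mrpl35, was at -0.67, -1.27 and 2.82.

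**Figure D4:**
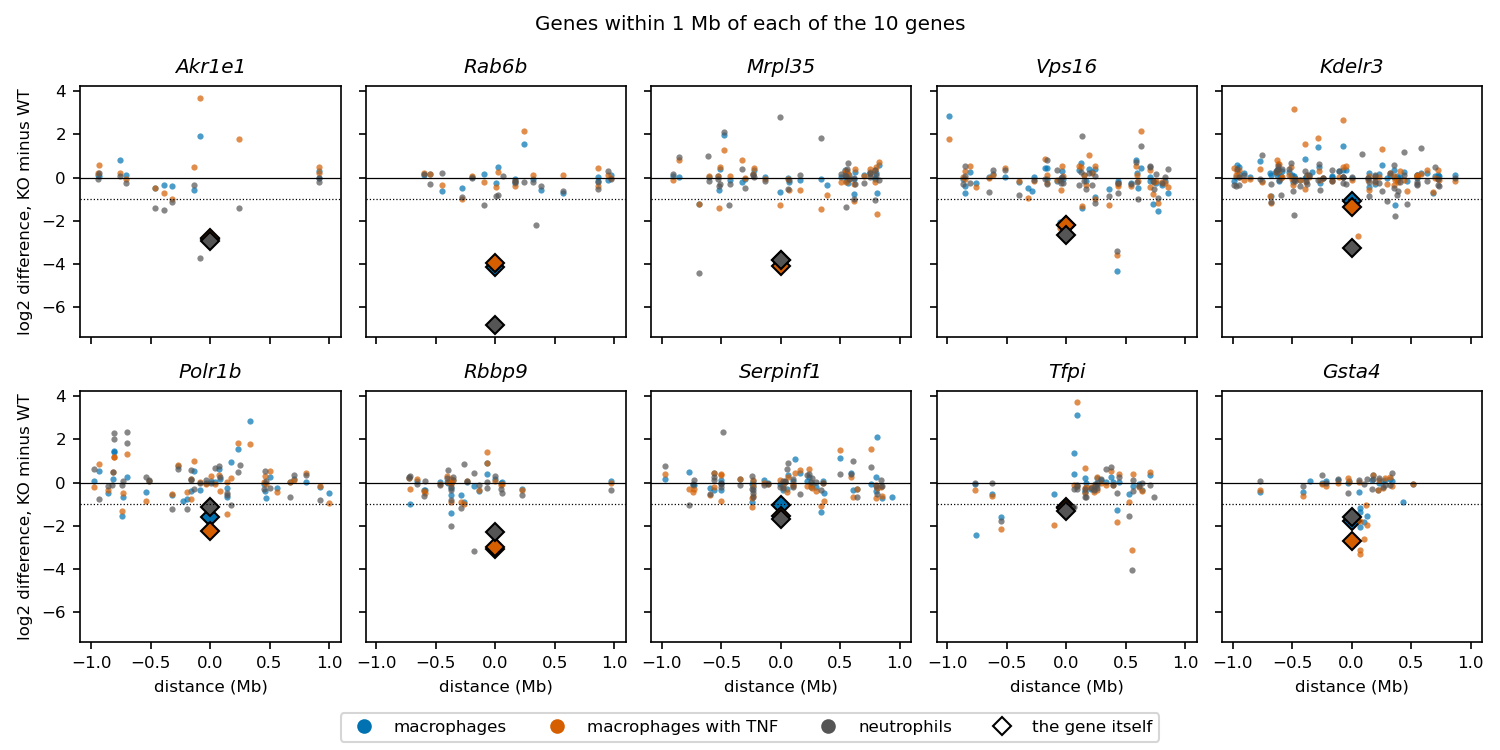
Scaled log2 difference, KO minus WT, of genes within 1 Mb of each of the 10 genes, against distance from its main probe, with the gene itself as a diamond at 0 and values shown as measured, bounds included. Dotted lines mark a 2-fold decrease. Most neighbours scatter about 0, and several genes to the right of Gsta4 lie below -1 in macrophages only.

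The 10 members are part of a longer list by the same rule. Of the 40 genes, 29 had a RefSeq name and 19 of those were not members. By the size of their smallest difference the first 15 were 2610507I01Rik, Lrp4, Fbxo44, H2bu2, Diaph3, 5830444B04Rik, Sat2, Extl1, Rps4l, Unc5a, Spint1, Rps4l-ps, Zfp277, Camk2n1 and Thnsl2. The transcript 2610507I01Rik stood at -4.82 and -4.54 in macrophages and at or below -5.15 in neutrophils. Fbxo44, an F-box protein of ubiquitin ligases, was at -1.94, -2.58 and -2.93. Unc5a, a netrin receptor, was at -1.53, -1.66 and -2.05. Spint1, an inhibitor of the hepatocyte growth factor activator, was at -2.51, -4.41 and at or below -1.48. Of the 40, 8 had further probes, and in 2 of these, Spint1 and an unnamed noncoding RNA, a further probe was lower in all 3 conditions as well. No member was among those 2.

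Promoter sequence was looked at for shared letters only. RefSeq promoters of GRCm38.p6, from 250 bases before to 50 after the start, were found for 9 of the 10 genes, 10 promoters in all, and none was listed for Gsta4. Their GC content ran from 41.7% to 78.7%, around the median of 52.7% for 32851 promoters. The motif TGACNNNGC, the core of the antioxidant response element, was searched on both strands and was present in 2 of the 10, beside 12.4% of all promoters. A match of letters does not show a site in use.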

How the data were processed

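Total RNA was labelled with Cy3 and hybridised in 1 colour to 6 Agilent mouse arrays, 1 per group. Per the file headers, the authors' images were read with Agilent Feature Extraction 10.7.3.1, and the deposited intensity was background-subtracted and detrended on a linear scale, with no scaling between arrays. All arrays lay on 1 slide with 1 scan run, so no batch could be tested. Coordinates are mm9, as in the files.

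Control spots and between 101 and 121 outlier spots per array were left out, repeated spots averaged, and log2 intensity minus the array's 75th percentile was used. A gene took its probe with the highest mean. Names came from accession for 27234 probes, symbol for 3581 and synonym for 565, through RefSeq GRCm38.p6. No test was run: each group had 1 array, whose number limits the precision, and a genotype model over the 3 pairs of arrays would test the contrast that chose the genes. The call rule was run on simulated arrays with planted changes well past the threshold. This says nothing of changes near the threshold or of variation between mice. Alternatives were normexp (limma 3.58.1, offset 50), quantile, median and spike-in scaling, filters on dim probes, the median over a gene's probes, other windows and thresholds.

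The members and gene lists were chosen with earlier results of these data known. Named genes were the members, Steap4, the 15 further genes lowest in all 3 conditions by their smallest difference, neighbours within 1 Mb lower in 2 or more conditions, and up to 3 genes per partner list. Genes named outside this rule were chosen after their values were seen: the markers, genes near the threshold, and probes within 20 kb.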

Additional observations from a re-analysis of the deposited data

Results flagged for a closer look

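The further probe of Serpinf1 stood apart because its difference between KO and WT changed direction between cell types. It was -0.68 in macrophages, -1.29 in macrophages with TNFα and 2.83 in neutrophils, on the log2 scale. The difference between conditions was not tested, with 1 array per group. The WT neutrophil reading was close to the weakest detected signal on its array. Under normexp background correction the neutrophil value was 0.98, short of 2-fold. Under quantile, median and spike-in scaling it was 3.102, 2.82 and 2.42. The main probe of the gene was at -1.67 in neutrophils.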

How the results depend on the processing

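No paired analysis was possible within a condition, because each of its 2 groups has 1 array. A genotype model over the 3 pairs of arrays was not fitted, since the genes were chosen on that contrast. Quantile normalization and scaling to the median of probes detected on all arrays kept every member lower in the 3 conditions. With normexp background correction 5 of the 10 remained lower in all 3, with 5 of 10 lower in neutrophils. The members past the rule there were 9 in macrophages and 9 with TNFα. Kdelr3 was then at -0.98 in macrophages and -0.38 in neutrophils, Gsta4 at -0.83 with TNFα and -0.55 in neutrophils, and Polr1b, Serpinf1 and Tfpi at -0.75, -0.60 and -0.63 in neutrophils. Under normexp 14 genes were lower in all 3, 0 further probe readings and 4 neighbours were lower, and 0 members passed with TNFα in KO. The normexp offset of 50 intensity units draws differences between dim readings toward 0, whatever their cause.

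Spike-in scaling moved the median of all genes to -0.46, -0.72 and -0.42. The calls became 437 higher and 1760 lower in macrophages, 468 and 4954 with TNFα, and 361 and 2381 in neutrophils, from 1006 and 381, 1655 and 638, and 877 and 1135. All 10 members were lower, but so were 247 genes in all 3 conditions, 4 further probe readings, 56 neighbours and 10 members between neutrophils and macrophages, and 1 member passed with TNFα in WT.

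Requiring all arrays well above background left 6 members in each condition, 22 genes in all 3, 4 neighbours and 0 members with TNFα in KO. No filter gave 61 genes. Thresholds of 1.5-fold and 3-fold gave 170 and 17, and a window of 0.5 Mb gave 8 neighbours. Taking the median over a gene's probes left 6 members lower in all 3 and 2 past 2-fold with TNFα in KO. Those 6 are the members with 1 probe, whose values a median over probes cannot change. The 4 members with further probes each fell short in at least 1 condition. Rbbp9 was at -0.96 in neutrophils, and Tfpi at -0.65 in macrophages and -0.56 with TNFα. Polr1b was at -0.30 and Serpinf1 at -0.85 in macrophages, and they turned to 0.38 and 0.58 in neutrophils. Their further probes had measured values of 1.87 and 2.83 there. For Polr1b the WT reading was not well above background, so its difference is a bound, at or above 0.52, and was not called. Signal over background limits Rab6b, Mrpl35, Kdelr3 and Gsta4, which have a bound in at least 1 condition.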
